A study of Mus musculus with 64 samples.

Results

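The 9 genes described here encode peptides, receptors and a receptor partner best known from the hypothalamus. Their transcripts were read in punches of a neighbouring region, the ventral tegmental area of the mouse midbrain. They are the peptide genes Pmch, Hcrt, Tac2, Trh, Gal and Cartpt, the receptor genes Calcr and Brs3, and Ramp3, the gene of the receptor partner. Together they make 9 of the 24421 gene symbols counted. They were chosen by name from earlier results of the same libraries, for their high counts in several punches from valproate-treated mice and for their relation to Th, the gene of tyrosine hydroxylase and the main marker of dopamine neurons. The values under valproate in mutant-labelled mice and the relations to Th are therefore given as a description with no test.

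RNA was sequenced from 64 adult male mice, with 1 library per mouse and 8 groups. The tissue was bilateral punches of 1 mm centred on the ventral tegmental area, collected at zeitgeber time 6, some 24 h after 14 days of treatment had ended. All mice had the strain label 129S1/Svlm, and the genotype label was Clock delta 19 mutant (a germline allele of the core clock gene Clock, carried in all cells, whose protein lacks an exon and acts as a dominant negative) or Wildtype. The drugs were valproate (VPA), used as a mood stabiliser and known to block histone deacetylases, and ACY957, which blocks class I members of that enzyme family, and each had its own vehicle group. With VPA there were 8 mutant-labelled and 8 wildtype-labelled mice, and with VPA vehicle 13 mutant-labelled and 3 wildtype-labelled mice. With ACY957 there were 8 mutant-labelled and 8 wildtype-labelled mice, and with ACY957 vehicle 11 mutant-labelled and 5 wildtype-labelled mice, whereas the design text gives 8 mice per group. The groups share the strain, the sex, the hour and 14 days of treatment with a drug or a vehicle, so no group was untreated.

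Neuropeptides are cut from larger precursors, stored in dense vesicles and act on G protein-coupled receptors of other neurons. Melanin-concentrating hormone (from Pmch) and the orexins (from Hcrt) are made by separate neurons of the lateral hypothalamus that project widely, to the ventral tegmental area among other targets, and are known for their roles in feeding, sleep and arousal. In a punch, a peptide transcript is read from the cell bodies inside it, and in such bulk tissue fewer cells of a type and less RNA per cell cannot be told apart.

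Library totals ran from 20.1 to 37.5 M counts, with a median of 25.8 M, and a count of 0 allows up to 0.0801 to 0.149 CPM (the usual unit of counts scaled to a common library size), depending on the library. The tissue label was checked against 12 dopamine neuron genes, each of which was counted in every library. Their summed level lay between 383 and 14100 CPM, with a median of 7510 CPM. Th itself was below 8 on the log2 CPM scale in 4 libraries. These were replicates 8 and 2 of VPA, mutant label, with 26.3 and 44.2 CPM, replicate 3 of VPA, wildtype label, with 98 CPM, and replicate 3 of VPA vehicle, mutant label, with 202 CPM, against a median of 1010 CPM over the 64 libraries. Clock was counted in all libraries at 34.3 to 89.5 CPM, and since the allele removes 1 exon rather than the transcript, its level checks no label. A score of 8 clock output genes (mean log2 CPM) fell into a lower set of libraries, up to 4.33, and an upper set, from 4.91. Of the 40 mutant-labelled libraries 12 lay in the upper set, and of the 24 wildtype-labelled libraries 1 lay in the lower set, so "mutant label" and "wildtype label" are used throughout for what GEO's labels say. The 12 were unevenly spread. They were replicates 3, 5, 6, 7, 8 and 13 of VPA vehicle, mutant label (5.04 to 5.64), and replicates 6, 7 and 8 of ACY957 vehicle, mutant label (5.30 to 5.37). Under a drug they were replicate 2 of VPA, mutant label, and replicates 1 and 3 of ACY957, mutant label (4.96 and 4.91). Drug and clock output are therefore mixed in the comparisons of mutant-labelled mice, and the part of clock output was not tested. Of the valproate libraries on which most of the following turns, replicate 2 of VPA, mutant label, scored 5.01, replicate 7 4.18 and replicate 8 4.33.

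Proximal promoters are shown for 3 members, Pmch and Hcrt because their transcripts reached the highest levels in the same 3 libraries, and Cartpt because it did not. Each is the reference sequence of RefSeq (GRCm38.p6), 250 bases before to 50 bases after the annotated start, on the strand of the gene. The windows are chr10:88090822-88091121 (plus strand) for Pmch, chr11:100762882-100763181 (minus strand) for Hcrt and chr13:99900634-99900933 (minus strand) for Cartpt. Capitals mark TATAAA, the core promoter element bound early by the transcription machinery, in the first and the second, and TGACGTCA, a cyclic AMP response element, in the third.
Pmch: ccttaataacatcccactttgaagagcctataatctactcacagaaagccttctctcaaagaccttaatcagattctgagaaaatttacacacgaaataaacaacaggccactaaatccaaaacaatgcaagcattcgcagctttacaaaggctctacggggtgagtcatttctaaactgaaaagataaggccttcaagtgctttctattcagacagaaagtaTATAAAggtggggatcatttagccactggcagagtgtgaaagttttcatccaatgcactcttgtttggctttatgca
Hcrt: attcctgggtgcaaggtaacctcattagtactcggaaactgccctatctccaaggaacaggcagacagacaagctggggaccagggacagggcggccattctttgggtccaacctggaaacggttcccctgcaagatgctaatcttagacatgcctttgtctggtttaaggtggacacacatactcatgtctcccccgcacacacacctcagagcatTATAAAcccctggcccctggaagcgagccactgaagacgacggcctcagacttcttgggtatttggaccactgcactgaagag
Cartpt: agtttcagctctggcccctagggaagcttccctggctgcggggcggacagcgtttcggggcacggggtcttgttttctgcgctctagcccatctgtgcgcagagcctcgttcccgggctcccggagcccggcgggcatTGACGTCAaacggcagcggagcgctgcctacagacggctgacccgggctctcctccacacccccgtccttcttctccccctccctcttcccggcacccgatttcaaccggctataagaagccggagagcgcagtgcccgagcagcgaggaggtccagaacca
TATAAA began 27 bases before the start of Pmch and 33 bases before the start of Hcrt, and 13.6% of all 32851 promoter windows held it on either strand. TGACGTCA began 112 bases before the RefSeq start of Cartpt and was held by 1.79% of all windows. The gene coordinates given below for each member come from another annotation (GENCODE). By these the whole Cartpt window lies inside the gene (99898489 to 99901091), so the 2 annotations differ in where Cartpt starts. The E-box CACGTG, the sequence to which CLOCK binds with its partner, was searched in the same way and was in none of the windows of the 9 members, all of which matched the table (Calcr with 2 windows), while 7.15% of all windows held it. No match overlapped another motif. GC content was 39% in the Pmch window, 53.3% in the Hcrt window and 66% in the Cartpt window, against a median of 52.7% over all windows.

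Set per length of exon (RPKM, which divides CPM by the length in kilobases), the median levels of the members spanned a wide range, and each lay below that of Th. Median RPKM over 64 libraries was 426 for Th, 46.1 for Cartpt, 7.51 for Pmch, 2.51 for Ramp3, 1.76 for Gal, 0.853 for Tac2, 0.831 for Trh, 0.68 for Hcrt, 0.637 for Calcr and 0.0655 for Brs3. In single libraries the order could turn: Cartpt exceeded Th in 5 of 64 libraries, Pmch in 3, Tac2 and Hcrt in 2 each and Ramp3 in 1, and in replicate 8 of VPA, mutant label, Pmch stood at 724 RPKM where Th had its lowest level, 11.1 RPKM. Cartpt was above Pmch in 57 of 64 libraries, Pmch above Ramp3 in 64 of 64 and Calcr above Brs3 in 64 of 64. The neighbours Tac2, Trh, Hcrt and Calcr were not separated beyond their spread, since Tac2 exceeded Trh in 37 libraries, Trh exceeded Hcrt in 38 and Hcrt exceeded Calcr in 38. All 9 members passed the filter on low counts, but Brs3 reached 10 counts in only 12 libraries and was at 0 in 1, and Hcrt reached 10 counts in 44.

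**Figure D1:**
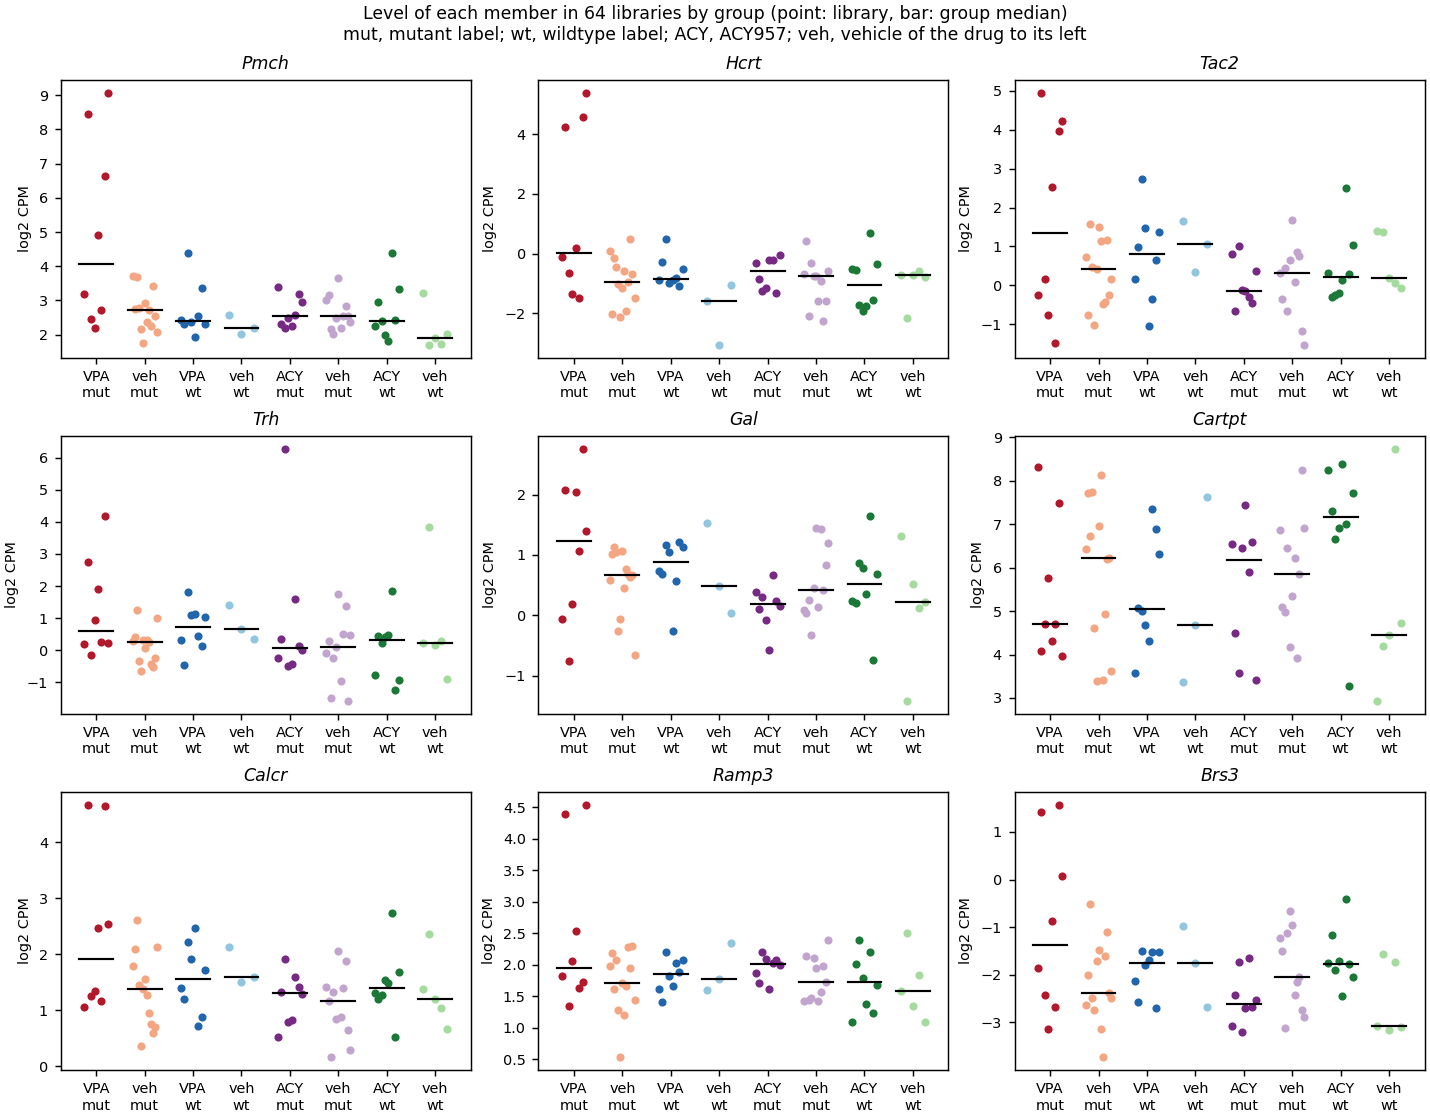
Level of each of the 9 genes on the log2 CPM scale (y axis) by group (x axis), with a point for each of the 64 libraries and a bar at the group median. In VPA, mutant label (left of each panel), 3 libraries stand far above the other points for Pmch (98.8 to 542 CPM) and Hcrt (18.7 to 42.2 CPM), while single points stand apart for Trh in ACY957, mutant label (77.5 CPM) and Cartpt is spread over every group.

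Pmch (ENSMUSG00000035383.7, mm10 chromosome 10, 88091072 to 88092375, plus strand) encodes the precursor of melanin-concentrating hormone. It had 9.05, 349, 5.43, 4.48, 30.3, 6.5, 98.8 and 542 CPM in replicates 1 to 8 of VPA, mutant label, against a lowest, median and highest level of 3.28, 6.48 and 13.1 CPM in the 13 mice of VPA vehicle, mutant label. In VPA, wildtype label, it had a lowest, median and highest level of 3.73, 5.22 and 21 CPM, against 5.86, 4 and 4.53 CPM in the 3 mice of VPA vehicle, wildtype label. Replicates 2, 7 and 8 were far above every vehicle library, replicate 5 was moderately above them, and the other 4 lay within the vehicle range. In raw reads, replicate 8 held 15474 counts of Pmch and replicate 2 held 9153, while the vehicle libraries of the same label held 86 to 328. The exons of Pmch share 435 bases with those of Parpbp on the opposite strand, whose level was at most 2 CPM in any library.

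Outside valproate the ranges of Pmch overlapped between drug and vehicle. In ACY957, mutant label, it was 4.49, 5.72 and 10.4 CPM (lowest, median and highest), against 4.02, 5.71 and 12.4 CPM in ACY957 vehicle, mutant label. In ACY957, wildtype label, it was 3.46, 5.24 and 21 CPM, against 9.15, 3.17, 3.64, 3.22 and 4.02 CPM in the 5 mice of ACY957 vehicle, wildtype label. The single library at 21 CPM (replicate 6 of ACY957, wildtype label) had 385 CPM of Th, below the median of 1010 CPM. At 8.59 log2 CPM of Th it was not among the 4 libraries below 8.

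Hcrt (ENSMUSG00000045471.4, mm10 chromosome 11, 100761069 to 100762931, minus strand) encodes the precursor of both orexins, the arousal peptides lost in narcolepsy. It had 0.837, 18.7, 0.558, 0.315, 1.06, 0.283, 23.8 and 42.2 CPM in replicates 1 to 8 of VPA, mutant label, against 0.152, 0.446 and 1.32 CPM (lowest, median and highest) in VPA vehicle, mutant label. The same replicates 2, 7 and 8 were high, and the other 5 lay inside the vehicle range. In VPA, wildtype label, it had 0.392, 0.477 and 1.33 CPM (lowest, median and highest), against 0.258, 0.0444 and 0.412 CPM in VPA vehicle, wildtype label. The lowest of these 3 values is a single read. Both ACY957 groups had medians of 0.604 CPM (mutant label) and 0.434 CPM (wildtype label), against 0.515 and 0.528 CPM in their vehicles, and their ranges overlapped.

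Hcrt and Pmch were not in a fixed ratio in the 3 high libraries. The ratio of Hcrt CPM to Pmch CPM was 0.0535 in replicate 2, 0.241 in replicate 7 and 0.0779 in replicate 8 of VPA, mutant label, against 0.0261 to 0.125 with a median of 0.0752 in VPA vehicle, mutant label. Replicate 7 lay above that range, with less Pmch for its Hcrt than replicates 2 and 8.

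Tac2 (ENSMUSG00000025400.11, mm10 chromosome 10, 127724478 to 127731768, plus strand) encodes neurokinin B, a tachykinin known from the neurons of the arcuate nucleus that pace gonadotropin release. It had 0.757, 31, 1.04, 0.511, 5.69, 0.283, 15.5 and 18.5 CPM in replicates 1 to 8 of VPA, mutant label, against 0.417, 1.26 and 2.89 CPM (lowest, median and highest) in VPA vehicle, mutant label. Replicates 2, 5, 7 and 8 exceeded every vehicle library and replicate 6 was below all of them. In VPA, wildtype label, the level was 0.408, 1.7 and 6.56 CPM (lowest, median and highest), against 3.06, 1.2 and 2.02 CPM in VPA vehicle, wildtype label. The highest of these, replicate 3 of VPA, wildtype label, was one of the 4 libraries low in Th. In ACY957, mutant label, Tac2 had 0.558, 0.835 and 1.92 CPM (lowest, median and highest), against 0.27, 1.18 and 3.14 CPM in ACY957 vehicle, mutant label. In ACY957, wildtype label, it had 0.742, 1.08 and 5.6 CPM, against 2.55, 2.5, 1.07, 0.973 and 0.88 CPM in ACY957 vehicle, wildtype label.

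Trh (ENSMUSG00000005892.4, mm10 chromosome 6, 92242061 to 92244650, minus strand) encodes thyrotropin-releasing hormone, the hypothalamic peptide that drives the thyroid axis. It had 1.08, 6.64, 0.818, 1.85, 3.69, 1.13, 18 and 1.09 CPM in replicates 1 to 8 of VPA, mutant label, against 0.568, 1.13 and 2.31 CPM (lowest, median and highest) in VPA vehicle, mutant label. Here replicate 8, the library highest in Pmch and Hcrt, was close to the vehicle median, and replicate 7 was the highest. Within VPA, wildtype label, Trh had 0.654, 1.63 and 3.44 CPM (lowest, median and highest), against 2.58, 1.51 and 1.19 CPM in VPA vehicle, wildtype label. The highest Trh level of all libraries was in another group, at 77.5 CPM (2055 counts) in replicate 3 of ACY957, mutant label, where the group's lowest and median levels were 0.636 and 0.975 CPM, against 0.259, 0.988 and 3.3 CPM (lowest, median and highest) in ACY957 vehicle, mutant label. In ACY957, wildtype label, Trh had 0.349, 1.19 and 3.53 CPM (lowest, median and highest). Replicate 2 of ACY957 vehicle, wildtype label, followed among the libraries outside VPA, at 14.1 CPM, against 1.1, 1.04, 1.16 and 0.461 CPM in the other 4 mice of that group. Pmch was at 4.49 CPM in the ACY957 library and 3.17 CPM in the vehicle library, and Th at 1330 and 1120 CPM. The Pmch levels were the lowest of their groups and the Th levels lay inside the range of theirs.

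Gal (ENSMUSG00000024907.7, mm10 chromosome 19, 3409915 to 3414544, minus strand) encodes galanin, a peptide found in many hypothalamic and brainstem neurons. It had 0.877, 4.16, 0.521, 1.06, 4.04, 2.02, 6.69 and 2.56 CPM in replicates 1 to 8 of VPA, mutant label, against 0.557, 1.5 and 2.11 CPM (lowest, median and highest) in VPA vehicle, mutant label. Replicates 2, 5, 7 and 8 were above every vehicle library, at 2.77, 2.69, 4.46 and 1.7 times the vehicle median. Within VPA, wildtype label, it had 0.758, 1.79 and 2.24 CPM (lowest, median and highest), against 2.8, 1.33 and 0.947 CPM in VPA vehicle, wildtype label, and the groups overlapped. In ACY957, mutant label, Gal had 0.594, 1.06 and 1.51 CPM (lowest, median and highest), against 0.727, 1.26 and 2.66 CPM in ACY957 vehicle, mutant label. In ACY957, wildtype label, it had 0.524, 1.37 and 3.06 CPM, against 2.42, 0.298, 1.36, 1.01 and 1.09 CPM in ACY957 vehicle, wildtype label.

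Cartpt (ENSMUSG00000021647.7, mm10 chromosome 13, 99898489 to 99901091, minus strand) encodes the precursor of CART, a peptide named for its regulation by cocaine and amphetamine. It had 318, 17, 26.1, 54.7, 19.9, 25.9, 180 and 15.6 CPM in replicates 1 to 8 of VPA, mutant label, against 10.5, 74.2 and 281 CPM (lowest, median and highest) in VPA vehicle, mutant label. Replicates 2 and 8 were near the bottom of the vehicle range, replicate 7 was inside it and replicate 1, which was not high in any other member, was above it. Its coefficient of variation was 1.34 in VPA, mutant label, and between 0.631 (ACY957, wildtype label) and 1.83 (ACY957 vehicle, wildtype label) in the remaining groups, in 5 of which it was about 1 or less. Its 5 values in ACY957 vehicle, wildtype label, were 7.57, 18.2, 21.8, 427 and 26.2 CPM, so the lowest and the highest Cartpt level of all 64 libraries came from mice of 1 group. Within VPA, wildtype label, it had 11.9, 33 and 162 CPM (lowest, median and highest), against 10.3, 25.6 and 197 CPM in VPA vehicle, wildtype label. In ACY957, mutant label, it had 10.6, 74 and 174 CPM, against 15, 57.9 and 302 CPM in ACY957 vehicle, mutant label, and in ACY957, wildtype label, 9.65, 143 and 334 CPM.

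Calcr (ENSMUSG00000023964.15, mm10 chromosome 6, 3685680 to 3764714, minus strand) encodes the calcitonin receptor, which pairs with a RAMP protein to bind amylin. It had 1.99, 25.4, 2.31, 2.48, 5.46, 2.18, 24.9 and 5.74 CPM in replicates 1 to 8 of VPA, mutant label, against 1.21, 2.52 and 6.02 CPM (lowest, median and highest) in VPA vehicle, mutant label. Only replicates 2 and 7 stood above the vehicle libraries. Within VPA, wildtype label, it had 1.57, 2.87 and 5.42 CPM (lowest, median and highest), against 4.26, 2.76 and 2.96 CPM in VPA vehicle, wildtype label. In ACY957, mutant label, it had 1.36, 2.39 and 3.69 CPM, against 1.04, 2.16 and 4.05 CPM in ACY957 vehicle, mutant label. In ACY957, wildtype label, it had 1.35, 2.56 and 6.59 CPM, against 2.51, 5.07, 2.21, 1.98 and 1.51 CPM in ACY957 vehicle, wildtype label, where the second value is again from the mouse high in Trh.

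Ramp3 (ENSMUSG00000041046.7, mm10 chromosome 11, 6658521 to 6677475, plus strand) encodes receptor activity-modifying protein 3, a partner of the calcitonin receptor and of the calcitonin receptor-like receptor. It had 3.47, 20.9, 2.45, 4.09, 5.69, 3.03, 3.21 and 23.1 CPM in replicates 1 to 8 of VPA, mutant label, against 1.37, 3.19 and 4.81 CPM (lowest, median and highest) in VPA vehicle, mutant label. Ramp3 was thus high in replicates 2 and 8, slightly above vehicle in replicate 5 and close to the vehicle median in replicate 7. Its coefficient of variation was the lowest of the 9 members in VPA, wildtype label (0.183), ACY957, mutant label (0.14), and ACY957 vehicle, mutant label (0.253). The same held in VPA vehicle, mutant label (0.316), and ACY957, wildtype label (0.329), but not in the remaining groups. Its medians were 3.53 CPM in VPA, wildtype label, 3.97 CPM in ACY957, mutant label, and 3.23 CPM in ACY957, wildtype label, against 3.33, 3.22 and 2.9 CPM in their vehicles. The ratio of Ramp3 CPM to Calcr CPM was 0.823 in replicate 2, 0.129 in replicate 7 and 4.02 in replicate 8, against 0.494 to 3.13 in VPA vehicle, mutant label, so that replicates 7 and 8 lay beyond opposite ends of the vehicle range.

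Brs3 (ENSMUSG00000031130.3, mm10 chromosome X, 57043074 to 57048758, plus strand) encodes bombesin receptor subtype-3, an orphan receptor known for its role in energy balance. It had 5, 68, 3, 1, 12, 2, 74 and 28 counts in replicates 1 to 8 of VPA, mutant label, or 0.0393 to 2.9 CPM, against 0 to 16 counts and at most 0.625 CPM in VPA vehicle, mutant label. Replicates 2, 7 and 8 were above every vehicle library. Outside VPA, mutant label, 8 of the 56 libraries reached 10 counts. The median was 0.224 CPM in VPA, wildtype label, 0.0898 CPM in ACY957, mutant label, and 0.219 CPM in ACY957, wildtype label, against 0.222, 0.166 and 0.044 CPM in their vehicles, which is near the level that 0 counts allow.

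**Figure D2:**
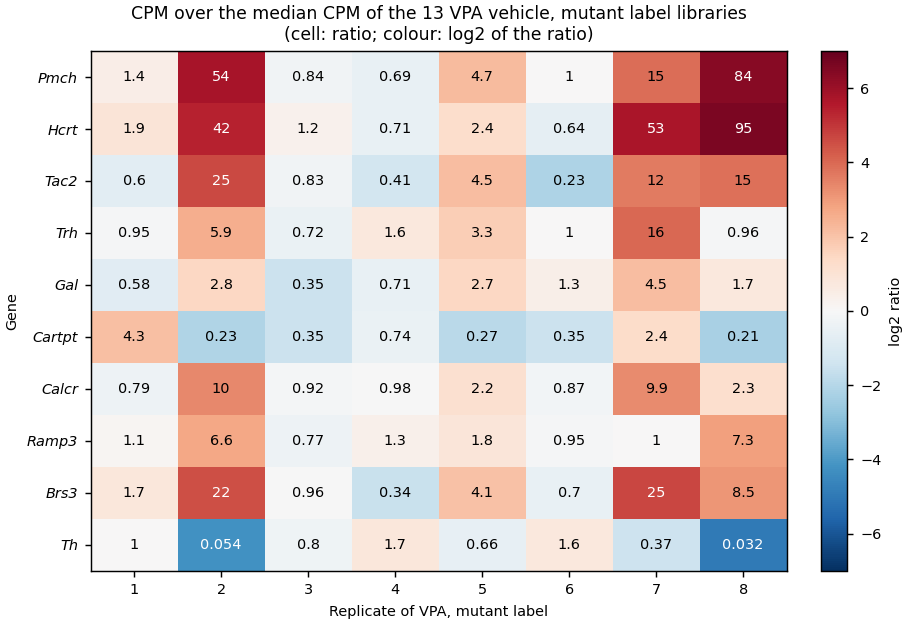
Level of each gene (rows) in each of the 8 libraries of VPA, mutant label (columns), as a ratio to the median CPM of the 13 libraries of VPA vehicle, mutant label, with the ratio printed in the cell and its log2 as the colour. Replicates 2, 7 and 8 are high in Pmch, Hcrt, Tac2 and Brs3, but replicate 8 is close to vehicle in Trh, replicate 7 is close to vehicle in Ramp3, and Cartpt is low in replicates 2 and 8, where Th is lowest (44.2 and 26.3 CPM).

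Across the libraries of VPA, mutant label, the number above the highest VPA vehicle, mutant label library was 4 of 8 for Pmch, Tac2 and Gal, 3 of 8 for Hcrt, Trh, Ramp3 and Brs3, 2 of 8 for Calcr and 1 of 8 for Cartpt. The edgeR fit over all 64 libraries gave a log2 difference between VPA and VPA vehicle in mutant-labelled mice of 4.36 (SE 0.53) for Hcrt, 4.22 (SE 0.49) for Pmch, 2.72 (SE 0.49) for Tac2, 2.26 (SE 0.48) for Brs3, 1.95 (SE 0.66) for Trh, 1.68 (SE 0.34) for Calcr, 1.30 (SE 0.26) for Ramp3, 0.90 (SE 0.30) for Gal and -0.24 (SE 0.67) for Cartpt. These values chose the members, and so the count past an adjusted p of 0.05 by edgeR's quasi-likelihood test, 6 of the 9 members beside 0.0576% of all genes tested, is no finding. By limma voom 0 members were past it, and by DESeq2 6. The difference rests on the 3 high libraries, which were picked after their values were seen. Without them the log2 difference was 0.67 for Pmch, 0.20 for Hcrt, 0.25 for Tac2, 0.62 for Trh, 0.07 for Calcr, 0.16 for Ramp3 and -0.07 for Brs3. With all libraries, limma voom, which weighs log values rather than counts, gave 2.43 for Hcrt, 2.30 for Pmch, 1.41 for Tac2 and 0.83 for Ramp3. When Th entered the edgeR model the value was 2.39 for Hcrt, 1.59 for Pmch, 1.45 for Brs3, 1.05 for Calcr, 0.99 for Tac2, 0.60 for Gal and 0.53 for Ramp3. When the 4 libraries of low Th were left out it was 3.13 for Hcrt, 1.99 for Pmch, 1.65 for Tac2 and 0.11 for Ramp3, while Trh (2.13), Brs3 (2.02), Calcr (1.40) and Gal (0.85) stayed closer to the value with all libraries. Single libraries moved the smaller differences, that of Trh to 1.06 and that of Gal to 0.57 without replicate 7, that of Ramp3 to 0.87 without replicate 8, and that of Cartpt to -1.0 without replicate 1.

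Between mutant-labelled and wildtype-labelled mice under VPA, the same 8 VPA, mutant label libraries enter, so this comparison is no separate account of them. The log2 difference was 4.14 (SE 0.62) for Hcrt, 4.10 (SE 0.59) for Pmch, 2.17 (SE 0.54) for Brs3, 2.09 (SE 0.56) for Tac2, 1.49 (SE 0.39) for Calcr, 1.31 (SE 0.73) for Trh, 1.22 (SE 0.30) for Ramp3, 0.67 (SE 0.33) for Gal and 0.44 (SE 0.74) for Cartpt. By edgeR's quasi-likelihood test, 6 of the 9 members were past an adjusted p of 0.05 beside 1% of all genes tested, again with nothing read from it. By limma voom 0 members were past it, and by DESeq2 6. Without the 3 high libraries the log2 difference of Pmch was 0.55, and with Th in the model that of Tac2 was 0.43 and that of Ramp3 0.40.

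Markers moved with these libraries, and their part in the levels of the 9 genes was not tested. The 12 dopamine neuron genes summed to 503, 2480 and 383 CPM in replicates 2, 7 and 8 of VPA, mutant label, against 1840 to 9890 CPM in VPA vehicle, mutant label. The 13 other hypothalamic neuron markers summed to 164, 133 and 156 CPM in replicates 2, 7 and 8, against 30.3 to 116 CPM in VPA vehicle, mutant label. Most of each sum in these replicates came from Sst and Nts among the 13 markers. Among these 13, the defining genes of magnocellular neurons were at or near 0, with Avp at 0, 0 and 0.35 CPM and Oxt at 0.153, 0 and 0.035 CPM in replicates 2, 7 and 8, while the vehicle libraries reached 0.206 CPM of Avp and 0.172 CPM of Oxt. Npvf was low but above the vehicle libraries in 2 of the 3, with 1.14, 0.509 and 0 CPM in replicates 2, 7 and 8, against at most 0.0859 CPM. Kiss1 had 0.153, 0.0391 and 0.28 CPM, against at most 0.141 CPM, and Qrfp 0.0763, 0 and 0 CPM, against at most 0.0429 CPM, levels of a few counts. Hdc, the histamine-making enzyme of the tuberomammillary nucleus, had 37.1, 8.81 and 15.7 CPM in replicates 2, 7 and 8, against at most 10.9 CPM in VPA vehicle, mutant label. Sst (somatostatin) had 73.9, 79.2 and 78.7 CPM in them, against at most 65.6 CPM. Npy had 6.71, 6.22 and 7.32 CPM, against at most 5.96 CPM, and Ghrh 1.03, 0.861 and 0.841 CPM, against at most 0.825 CPM. Nts had 37.9, 29 and 46.7 CPM, against at most 31.2 CPM, and Crh 3.78, 5.4 and 3.71 CPM, against at most 4.03 CPM. Agrp (0.114, 0.274 and 0.035 CPM) and Pomc (2.29, 2.7 and 2.84 CPM) stayed below their vehicle maxima of 0.318 and 3.75 CPM.

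Of 12 hypothalamic and mammillary transcription factors the summed level was 142, 91.1 and 110 CPM in replicates 2, 7 and 8 of VPA, mutant label, against 40.8 to 119 CPM in VPA vehicle, mutant label, so that replicate 2 alone of these 3 was outside the range. Replicate 5, which was only moderately high in the members, was also above it, at 133 CPM. Of the list, Nkx2-1 and Lhx6 are named after their values were seen. Nkx2-1, a transcription factor that specifies ventral hypothalamus, had 9.46, 3.09 and 2.49 CPM in replicates 2, 7 and 8, against at most 2.54 CPM in VPA vehicle, mutant label. Lhx6 had 10, 2.43 and 3.12 CPM, against at most 1.59 CPM. Thalamus markers (3 genes) summed to 43.9, 23.4 and 79 CPM in replicates 2, 7 and 8, against 15.6 to 47.5 CPM, with replicate 8 alone outside the range. Choroid plexus markers (3 genes) summed to 8.01, 15.2 and 33.8 CPM, inside the 4.91 to 76.8 CPM of VPA vehicle, mutant label. Serotonin neuron markers (3 genes) summed to 0.915, 2.5 and 1.26 CPM, against 1.08 to 20.9 CPM.

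The 9 receptors for the members' peptides summed to 106, 156 and 117 CPM in replicates 2, 7 and 8 of VPA, mutant label, against 129 to 274 CPM in VPA vehicle, mutant label. Tacr3, the neurokinin B receptor, had 30.8, 74.5 and 40.1 CPM in replicates 2, 7 and 8, against 53.7 to 193 CPM. Of the orexin receptors, Hcrtr1 had 12.9, 16.7 and 15.3 CPM, against 15.9 to 21.1 CPM, while Hcrtr2 had 22, 20.8 and 23 CPM, above the vehicle median of 17.1 CPM and inside the vehicle range of 9.39 to 27.9 CPM. Mchr1, the receptor of melanin-concentrating hormone, had 13.8, 9.47 and 12.8 CPM, against 9.87 to 12.7 CPM, so that replicates 2 and 8 were slightly above the range and replicate 7 below it. Trhr, the receptor of thyrotropin-releasing hormone, had 18.2, 28.2 and 19.7 CPM, against 20.1 to 35.7 CPM. Galr1, a galanin receptor named after its values were seen, was higher in all 3, with 5.68, 2.97 and 3.29 CPM, against at most 2.37 CPM. The 11 peptide processing genes, which cut and package precursors of all peptides, summed to 7870, 7340 and 7970 CPM, inside the 6000 to 8140 CPM of VPA vehicle, mutant label.

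The remaining comparisons did not choose the members and were tested, each with edgeR's quasi-likelihood test and p-values adjusted over 15634 genes. Valproate in wildtype-labelled mice came first. Of the 9 members 0 rose and 0 fell, beside 0.0256% of all genes tested. The log2 difference between VPA and VPA vehicle was 1.34 (SE 1.12) for Hcrt, 0.66 (SE 0.83) for Pmch and -0.36 (SE 0.98) for Cartpt, and between -0.27 and 0.04 for the other 6. With 3 vehicle mice the errors are wide, and 0 members had an unadjusted p under 0.05 where 668 genes did. DESeq2 and limma voom called 0 members as well.

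ACY957 in mutant-labelled mice called 0 of the 9 members by edgeR, beside 0.0064% of all genes tested. Trh was nearest, with a log2 difference between ACY957 and ACY957 vehicle of 3.14 (SE 0.68) and an edgeR adjusted p of 0.099. It was the single member with an unadjusted p under 0.05, where 987 genes had one. Trh averaged 10.7 ± 27 CPM in ACY957, mutant label (SD, n = 8), and 1.2 ± 0.945 CPM in ACY957 vehicle, mutant label (SD, n = 11). DESeq2 called Trh (adjusted p 0.0125) and limma voom called 0 members, and edgeR called it when replicate 2 or replicate 5 of ACY957, mutant label, was left out (lowest adjusted p 0.0428). The difference rests on replicate 3 of ACY957, mutant label, without which the log2 difference was -0.05. The clock output score of this library was 4.91, in the upper set that held most wildtype-labelled libraries, so its label is uncertain. The same library held 465 CPM of the 3 choroid plexus markers, against a median of 6.51 CPM in its group and at most 90.6 CPM in any other library, and the part of this in the Trh level was not tested. Of these markers Ttr (transthyretin) reached 430 CPM and Kl 28.5 CPM. The dopamine neuron markers summed to 9720 CPM and the other hypothalamic markers to 69.2 CPM there, both within their group's range. For the other 8 members the log2 difference lay between -0.99 (Brs3, SE 0.64) and 0.24 (Hcrt, SE 0.66).

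ACY957 in wildtype-labelled mice called 0 of 9 members by edgeR, by DESeq2 and by limma voom, beside 0.0064% of all genes tested by edgeR, with 0 members and 519 genes at an unadjusted p under 0.05. Trh had a log2 difference of -1.54 (SE 0.84) between ACY957 and ACY957 vehicle, and Brs3 one of 1.11 (SE 0.76). The difference of the ACY957 differences, mutant label minus wildtype label, called 0 of 9 members by each of the 3 tools, beside 0% of all genes tested by edgeR, with 287 genes and 2 members at an unadjusted p under 0.05. These were Trh, at 4.69 (SE 1.07, edgeR adjusted p 0.265), and Brs3, at -2.09 (SE 0.99, edgeR adjusted p 1). Without replicate 3 of ACY957, mutant label, the value of Trh was 1.49.

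Genotype labels were compared within 3 treatments. Under ACY957, 0 of 9 members were called by edgeR, beside 0% of all genes tested, with 757 genes and 1 member, Trh, at an unadjusted p under 0.05. Trh differed by 3.12 (SE 0.76, edgeR adjusted p 0.248; DESeq2 adjusted p 0.0399, limma voom 0 members), and by -0.07 without replicate 3 of the mutant label. Cartpt averaged 69.5 ± 55.5 CPM in ACY957, mutant label, and 171 ± 108 CPM in ACY957, wildtype label (SD, n = 8 each), a log2 difference of -1.30 (SE 0.75, edgeR adjusted p 1). Under VPA vehicle, 0 of 9 members were called by edgeR, DESeq2 or limma voom, beside 0.0064% of all genes tested by edgeR, with 0 members and 805 genes at an unadjusted p under 0.05, and the largest difference was 1.12 (SE 1.09) for Hcrt. Under ACY957 vehicle, 0 of 9 members were called by the same 3 tools, beside 0.0128% of all genes tested by edgeR, with 565 genes and 1 member, Trh, at an unadjusted p under 0.05. Trh differed there by -1.56 (SE 0.77, edgeR adjusted p 0.999).

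That Trh value turns on replicate 2 of ACY957 vehicle, wildtype label, at 14.1 CPM. The 3 serotonin neuron markers summed to 21.4 CPM in this library, against a median of 1.72 CPM in its group, with 13.2 CPM of Tph2, the brain enzyme of serotonin synthesis, and 7.68 CPM of Slc6a4, the serotonin transporter. Replicate 13 of VPA vehicle, mutant label, had like levels of both, with 13.9 CPM of Tph2 and 6.69 CPM of Slc6a4. Trh was at most 2.31 CPM in that group. The part of the serotonin neuron markers in the Trh level was not tested. The comparisons of ACY957 share groups. Replicate 2 of ACY957 vehicle, wildtype label, and replicate 3 of ACY957, mutant label, thus each enter 3 of them.

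**Figure D3:**
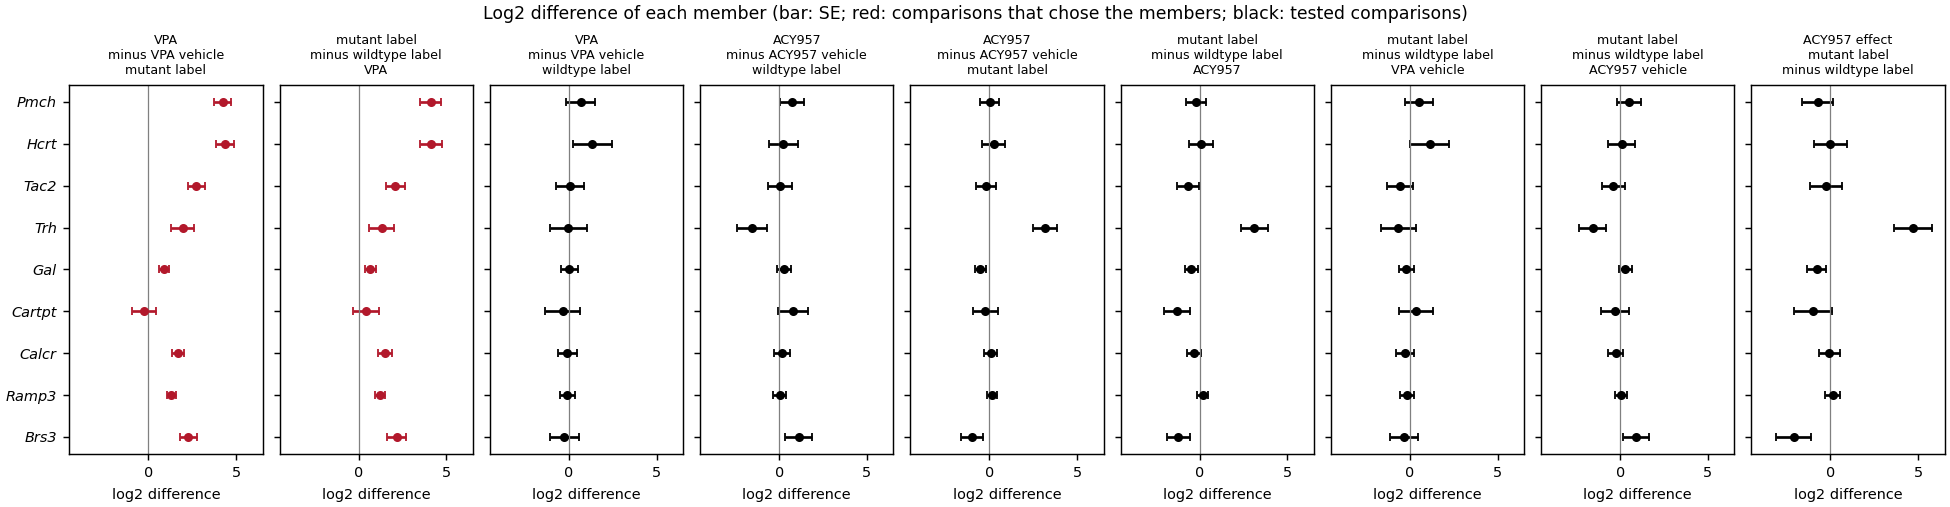
Log2 difference of each of the 9 genes (rows) in each comparison (columns), with the point at the edgeR estimate and the bar as its standard error (SE). Pmch and Hcrt lie near 4 in the 2 comparisons on the left, which chose the members (red), and among the 7 tested comparisons (black) Trh lies farthest from 0 (3.14, 3.12 and 4.69), in the 3 that contain replicate 3 of ACY957, mutant label.

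Over all 64 libraries most members were higher where Th was lower. Pearson's r between a member and Th on the log2 CPM scale was -0.84 for Pmch, -0.75 for Tac2, -0.73 for Hcrt, -0.59 for Calcr, -0.58 for Ramp3, -0.54 for Brs3, -0.47 for Gal, -0.19 for Trh and -0.05 for Cartpt. Spearman's rho was smaller in size for most, at -0.61 for Tac2, -0.52 for Pmch, -0.43 for Hcrt, -0.37 for Gal, -0.33 for Calcr, -0.27 for Cartpt, -0.25 for Brs3, -0.03 for Trh and 0.01 for Ramp3. The 64 points share punch location, sequencing depth and scaling factor with both genes of each relation, and they hold 8 groups, so no p is given.

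The relation of some members rested on a few libraries. Without the 2 libraries farthest from the median of Th, which are replicates 2 and 8 of VPA, mutant label, r was -0.62 for Pmch, -0.60 for Tac2 and -0.44 for Hcrt, but -0.03 for Ramp3. Without the 4 libraries below 8 log2 CPM of Th and without replicate 7 of VPA, mutant label (59 libraries), r was -0.49 for Pmch, -0.45 for Tac2, -0.39 for Cartpt, -0.29 for Gal, -0.27 for Hcrt, -0.24 for Calcr, -0.10 for Brs3, 0.02 for Ramp3 and 0.08 for Trh. For Cartpt r was -0.05 over 64 libraries and -0.41 over the 60 above 8 log2 CPM of Th. With the group means subtracted it was -0.83 for Pmch, -0.73 for Tac2 and -0.70 for Hcrt. Outside VPA, mutant label, replicate 3 of VPA, wildtype label, with 98 CPM of Th had 21 CPM of Pmch, 6.56 CPM of Tac2 and 1.33 CPM of Hcrt. Replicate 6 of ACY957, wildtype label, with 385 CPM of Th had 21 CPM of Pmch, 5.6 CPM of Tac2 and 1.55 CPM of Hcrt. Each of these 6 values was the highest of its group.

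**Figure D4:**
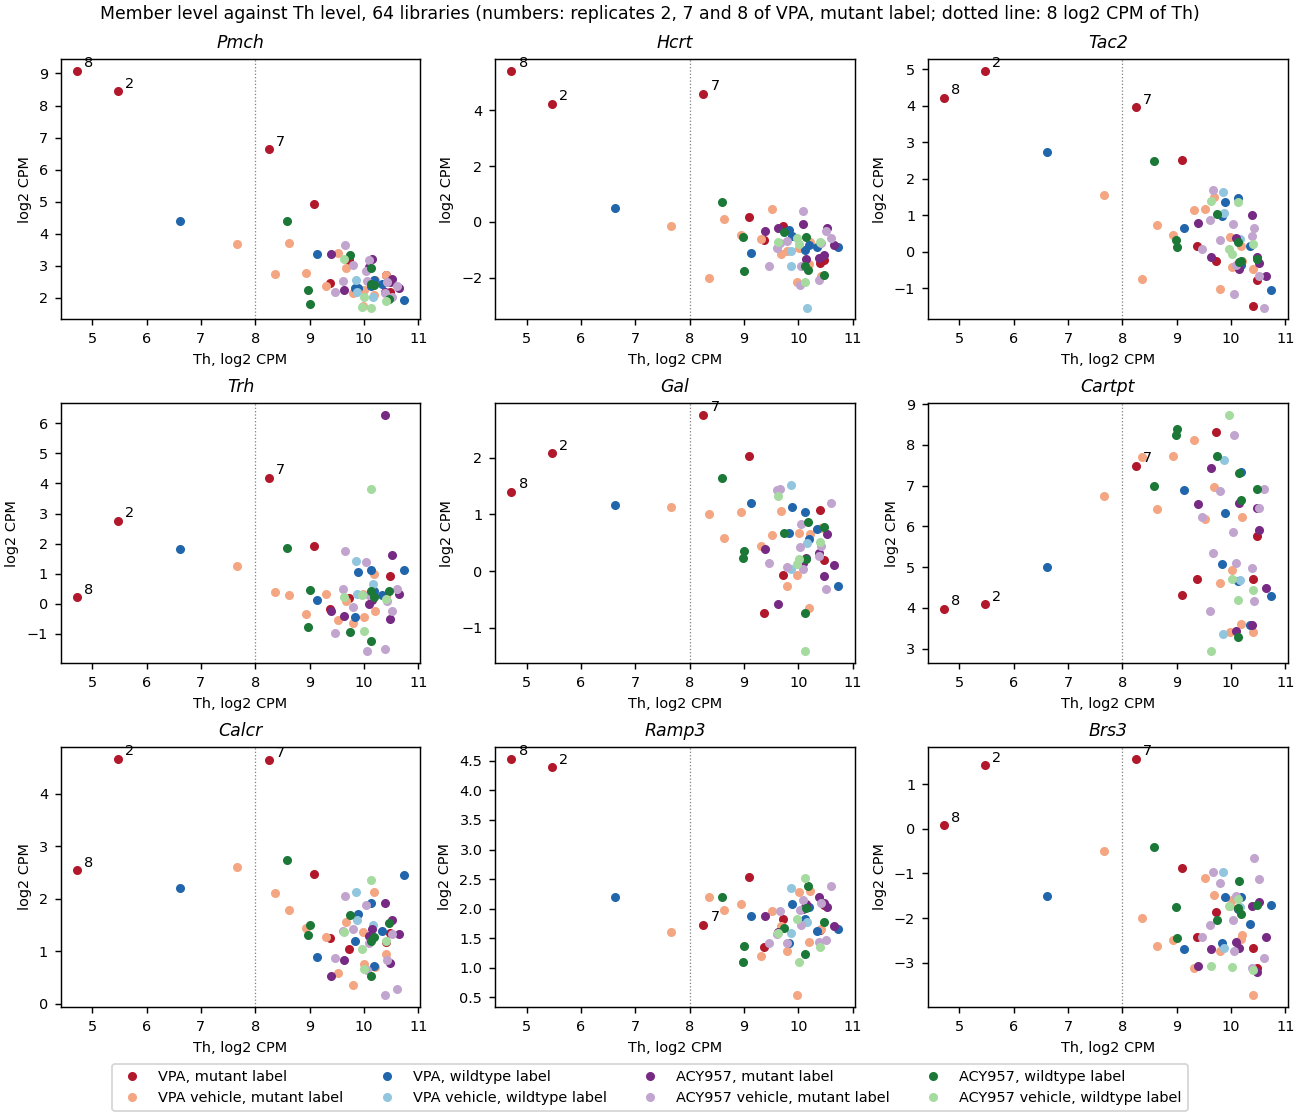
Level of each of the 9 genes (y axis, log2 CPM) against the level of Th (x axis, log2 CPM) in 64 libraries coloured by group, with replicates 2, 7 and 8 of VPA, mutant label, numbered and a dotted line at 8 log2 CPM of Th. Pmch, Tac2 and Hcrt climb towards low Th (r of -0.84, -0.75 and -0.73), Ramp3 does so in replicates 2 and 8 alone, and Cartpt has an r of -0.05 over all 64 points but of -0.41 over the 60 points right of the line.

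The members were not one block. Pearson's r on the log2 CPM scale over 64 libraries was 0.88 between Pmch and Hcrt and 0.74 between Calcr and Brs3. Without the 3 high libraries (61 libraries) these values were 0.58 and 0.51. Spearman's rho between Trh and Calcr was 0.74 with and without the 3 libraries, which include neither of the libraries highest in Trh outside VPA. Pmch and Gal had a rho of 0.57 in 64 libraries and 0.50 in 61. Cartpt had r between -0.21 and 0.05 with each of the other 8. These correlations share libraries and depth and are a description.

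**Figure D5:**
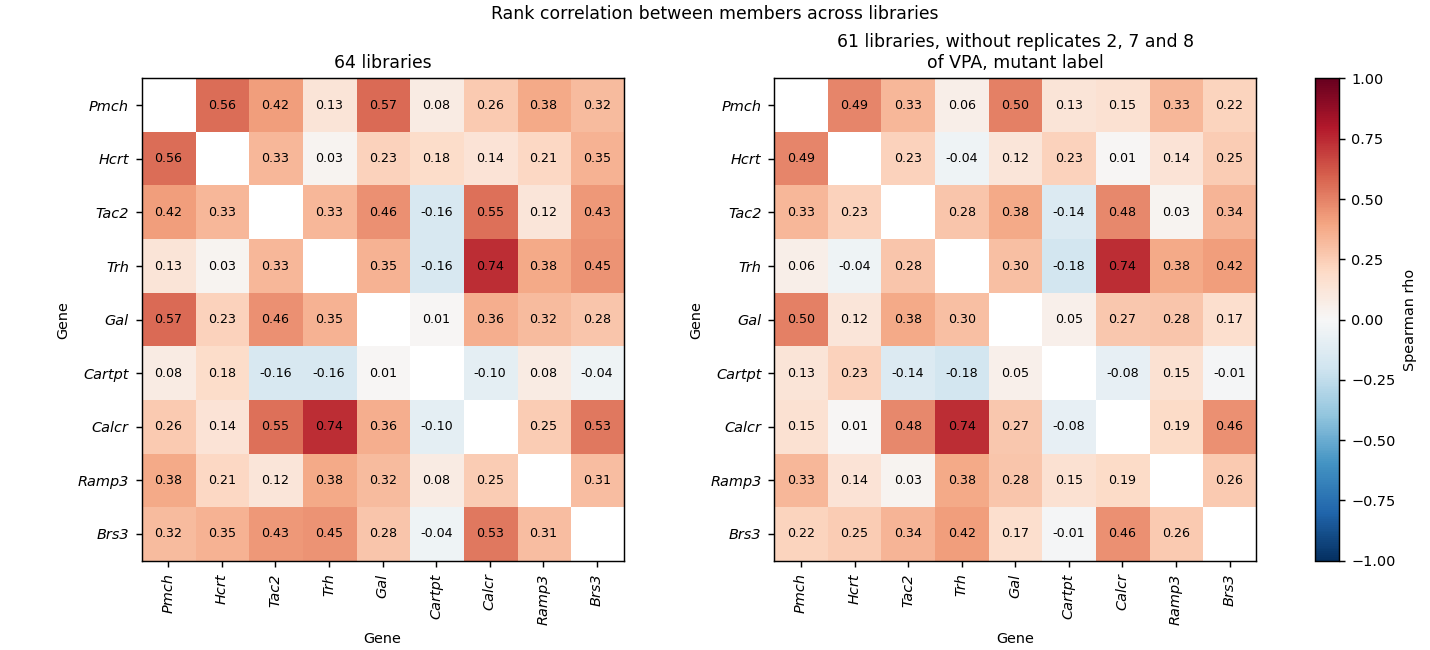
Spearman's rho between each pair of the 9 genes (rows and columns) across 64 libraries (left) and across the 61 libraries without replicates 2, 7 and 8 of VPA, mutant label (right), printed in each cell and coloured from -1 to 1. Trh with Calcr is highest in both panels (0.74), Pmch with Hcrt is 0.56 on the left and 0.49 on the right, and the row of Cartpt lies between -0.16 and 0.18 on the left and between -0.18 and 0.23 on the right.

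For each member the 3 genes with the most like pattern were taken by Pearson's r of log2 CPM over the 64 libraries. The closest match by far was that of Cartpt with Ucn, which encodes the peptide urocortin, at r = 0.96 (rho = 0.97), and it was 0.96 without the 3 high libraries as well. Ucn ranged from 0 counts in 1 library to 19.6 CPM, with a median of 1.64 CPM. Cartpt was next matched by Postn (periostin, an extracellular matrix protein) at 0.87 and Krt19 (a keratin) at 0.76, and these stood at 0.88 and 0.76 without the 3 libraries.

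Pmch was most like Mb21d2 (0.80), Tmem107 (0.77) and Rarres2 (0.77), and without the 3 high libraries it was most like Tac1 (substance P precursor, 0.73), Nts (neurotensin, 0.73) and Mb21d2 (0.73). Hcrt was most like Htr7 (a serotonin receptor, 0.73), Dlx1 (0.68) and Mfng (0.67), none of which was among its nearest 3 without the high libraries. Genes like Tac2 included Dlx1, a homeobox factor of GABA neurons (0.83), and Brinp3 (0.77), and Dlx1 was still among its nearest 3 in 61 libraries (0.70). Trh was most like the homeobox factor Otp (0.67), Gda (0.61) and Krt12 (0.60). Gda and Krt12 had 77 and 4.41 CPM in replicate 3 of ACY957, mutant label. In replicate 2 of ACY957 vehicle, wildtype label, also high in Trh, they had 70.7 and 5.11 CPM. Their medians over all libraries were 18.3 and 0.212 CPM. Both were picked by their likeness to Trh, so these values are a description. Gal was most like the somatostatin receptor gene Sstr2 (0.71), Krt1 (0.71) and Nkx2-1 (0.69), and Ramp3 most like Tmem107 (0.76), Nat14 (0.70) and Crip2 (0.69). Calcr and Brs3 shared Bsx (0.70 and 0.68), a hypothalamic homeobox factor, and Lypd6 (0.70 and 0.64), and completed their 3 with Meig1 (0.65) and Dlx1 (0.61). Bsx was at 0 in 32 libraries and Otp in 17, and relations of such sparse counts are no finding.

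The lists around the members gave no call in the tested comparisons. Of the 9 receptors for the members' peptides 8 were tested, and 0 rose and 0 fell in each of the 7 comparisons by edgeR, with medians of their log2 differences between -0.08 and 0.08. The median over all genes tested was between 0.00 and 0.01. The same absence of calls, with 0 risen and 0 fallen in each of the 7, held for the calcitonin family (6 of 8 genes tested), the bombesin family (4 of 4), peptide processing (11 of 11), the dopamine neuron markers (12 of 12), the other hypothalamic neuron markers (8 of 13), the hypothalamic and mammillary transcription factors (11 of 12), the serotonin neuron markers (2 of 3), the thalamus markers (3 of 3), the choroid plexus markers (3 of 3) and the clock output genes (8 of 8). Medians were not near 0 in all of these lists. All 8 clock output genes were lower with the mutant label in each tested comparison of genotype labels. Their median log2 difference was -0.63 under ACY957, -0.52 under VPA vehicle and -0.69 under ACY957 vehicle. Iapp and Adm2, ligands of calcitonin family receptors, were at 0 in 61 and 58 of the 64 libraries, so that the transcript of amylin (from Iapp) was not detectable at this depth in 61 punches. Of the calcitonin family, Ramp2 had the smallest unadjusted edgeR p in the tested comparisons (0.0294), with a log2 difference of -0.21 (SE 0.10, edgeR adjusted p 0.99) between mutant-labelled and wildtype-labelled mice under ACY957. The lowest edgeR adjusted p of the family, 0.781, was also that of Ramp2, at -0.18 (SE 0.09) between ACY957 and ACY957 vehicle in mutant-labelled mice. Of the bombesin family Grp, the ligand gastrin-releasing peptide, had a difference of 0.47 (SE 0.31, edgeR adjusted p 1) between genotype labels under ACY957.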

How the data were processed

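The deposited table holds whole-number read counts per gene symbol for 64 libraries, with no normalization by the authors, and every one of its columns was mapped to a mouse by the number in its label. Per the series' design text, stranded poly(A) libraries were read at 75 bases with 30 to 40 M reads stated, aligned with TopHat2 (2.0.9) to mm10 and counted with HTSeq (0.6.1). Per the submitters' processing notes, FastQC, Trimmomatic, HISAT2 and HTSeq were used with mm10, so the aligner is given in 2 ways. The strand setting of the counting is not given in the sources used here. Reads of overlapping genes on opposite strands can then not be told apart.

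The members and all gene lists were chosen with earlier results of these data known. Genes were kept by edgeR's filterByExpr (15634 of 24421), scaled by TMM and fitted in 1 quasi-likelihood model of 8 group means (edgeR 4.0.16, R 4.3.3), which share 1 estimate of spread. P-values were adjusted by Benjamini-Hochberg over all genes tested, with a threshold of 0.05. Levels are CPM scaled by TMM, on the log2 scale with a prior count of 2, and RPKM divides by the union of exons in the mm10 annotation (GENCODE vM21). The limit for 0 is 3 counts and covers counting error only. The fit was checked on simulated data with the same spread for all genes and no outlying library. That check does not cover groups where a few libraries lie far from the rest, as for the members.

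Named are the 9 members and Th, for each member the 3 genes with the highest r (predicted genes skipped, and 1 gene not reported here), and at most 4 genes per list by the smallest p in the tested comparisons. Genes named outside this rule were chosen with their values known. They include the other hypothalamic neuron markers, some receptors for the members' peptides, Iapp, Adm2, Nkx2-1 and Lhx6. Alternatives were DESeq2 1.42.0, limma voom (limma 3.58.1), no filter, only the groups compared, no late-numbered mutant-labelled vehicles, no libraries low in Th, Th as a covariate, each library left out, and 3 more sets of libraries left out after seeing the data. Every pair of libraries differed by more than sampling noise (lowest chi-square per degree of freedom 6.32), so none was counted as a duplicate.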

Additional observations from a re-analysis of the deposited data

Results flagged for a closer look

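In 6 of 36 groups tested (9 genes in the groups of 4 to 10 mice other than VPA, mutant label, whose values chose the members) the gap between the most extreme mouse and the next, as a share of the whole range of log2 CPM, exceeded Dixon's 95% critical value. Chance flags about 5% of groups where values are normal and groups are independent, but the groups here share mice across genes. The share flagged over all genes is not given, so the count is not read as a property of these genes. Pmch was highest in replicate 1 of ACY957 vehicle, wildtype label, at 9.15 CPM, with the next mouse at 4.02 CPM. Hcrt was lowest in replicate 2 of the same group, at 0.149 CPM, with the next at 0.503 CPM. Trh was highest in replicate 3 of ACY957, mutant label, at 77.5 CPM, with the next at 2.98 CPM, and in replicate 2 of ACY957 vehicle, wildtype label, at 14.1 CPM, with the next at 1.16 CPM. Gal was lowest in replicate 5 of VPA, wildtype label, at 0.758 CPM, with the next at 1.41 CPM. Cartpt was lowest in replicate 7 of ACY957, wildtype label, at 9.65 CPM, with the next at 101 CPM.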

How the results depend on the processing

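No paired analysis was possible because the labels number the mice 1 to 64 with no number shared between groups. In 5 of the 7 tested comparisons the count of members called stayed at 0 under all 9 alternatives and without each of the 64 libraries. For ACY957 against ACY957 vehicle in mutant-labelled mice it was 1 (Trh) by DESeq2 and without the 3 high libraries (replicates 2, 7 and 8 of VPA, mutant label), and 0 to 1 when each library was left out (1 without replicate 2 or 5 of ACY957, mutant label). For mutant against wildtype label under ACY957 it was 1 (Trh) by DESeq2. Without both libraries high in Trh its log2 differences in these 2 comparisons were -0.05 and -0.07, and -0.43 for the difference of ACY957 differences. Without each library in turn they lay between -0.05 and 3.41 and between -0.07 and 3.56. DESeq2 and the fits with no filter or only the groups compared gave the Pmch difference as 4.22 to 4.23, and limma voom 2.30. The edgeR Pmch difference between VPA and VPA vehicle in mutant-labelled mice was 1.59 with Th as a covariate, 1.99 without the 4 libraries of low Th, 0.67 without the 3 high libraries and 3.36 to 4.41 without each library in turn. Between genotype labels under VPA it was 1.46 with Th as a covariate, 0.55 without the 3 high libraries and 3.24 to 4.53 without each library in turn. In the first of these comparisons Cartpt was 0.12 without the 4 libraries of low Th and between -1.0 and 0.01 without each library in turn (0.01 without replicate 8 of VPA vehicle, mutant label), and Brs3 was -0.07 without the 3 high libraries. Brs3 has no value when only the groups compared were fitted, since the filter removed it there. The r with Th in the 60 libraries above the Th limit was -0.58 for Pmch, -0.43 for Hcrt, -0.54 for Tac2, -0.41 for Cartpt, 0.03 for Ramp3 and -0.27 for Brs3. Without the 2 libraries farthest from the median of Th it was -0.62, -0.44, -0.60, -0.30, -0.03 and -0.32 for the same genes. Without the 3 high libraries it was -0.60 for Pmch, -0.38 for Hcrt, -0.55 for Tac2, -0.38 for Calcr, -0.04 for Ramp3 and -0.23 for Brs3. Without both sets it was -0.49 for Pmch, -0.27 for Hcrt, -0.45 for Tac2, 0.08 for Trh, -0.39 for Cartpt, -0.24 for Calcr, 0.02 for Ramp3 and -0.10 for Brs3. The cause of each change was not tested. Limits are the 3 and 5 wildtype-labelled vehicle mice, counts under 10 for Brs3 in most libraries, and labels that the clock output genes go against.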
